A study of Mus musculus with 6 samples.

Results

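The endothelin system of the retina was described here through 6 genes: the ligand genes Edn1, Edn2 and Edn3, the receptor genes Ednra and Ednrb, and Ece1, the endothelin converting enzyme. They were chosen by name, as every gene probe whose gene name in the scanner files was one of these 6, which gave 7 of the 39429 gene probes on the array. Ednrb had 2 probes and each of the others had 1. A probe was kept where its Cy5 or Cy3 signal was clear of the local background on 3 or more of the 6 arrays. Of the members, 6 probes of 5 genes were kept, among 26134 genes tested in all, and Edn3 was not.

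The groups were retinas of male C57BL/6 mice aged 8 weeks whose right eye had received titanium dioxide nanoparticles in the vitreous body in front of the retina, at 10 times the dose called PTC (10PTC), the same particles at the dose PTC, and phosphate-buffered saline (PBS). Eyes were taken at day 7 from 12 mice per group, and a pool held 4 retinas. On each of 6 2-colour arrays, 3 per dose, a treated pool was labelled with Cy5 and control RNA with Cy3. The dyes were never the other way round, so that a dye effect on a gene cannot be told apart from treatment. Rises and falls given below are those of the ratio of Cy5 over Cy3. The labels give no absolute dose and do not expand PTC, every eye was injected, and the number of control pools is not stated in the sources used here. In the control channel 10 of 10 rod photoreceptor markers and 10 of 10 markers of Müller glia, the radial glia that span the retina, stood well above background on all arrays, as did 10 of 10 skeletal muscle and 6 of 6 cornea and lens markers, so that detection alone does not tell retina from neighbouring tissue.

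Endothelins are short peptides cut from larger precursors, first by furin-type proteases and then by Ece1, a membrane-bound metalloprotease. They act on a pair of G protein-coupled receptors: Ednra, best known in vascular smooth muscle and pericytes, where it raises calcium and contracts the vessel, and Ednrb, found on endothelium and on glia. In the damaged mouse retina, Edn2 is known as a signal of stressed photoreceptors that is received by Ednrb on Müller glia, within a response that also includes leukemia inhibitory factor (Lif), Fgf2 and Gfap. Edn3 and Ednrb are known in mice for the development of melanocytes and enteric neurons from the neural crest.

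The proximal promoters of the 3 members whose ratio passed the test at one dose or both are shown because these members moved by different amounts. They are taken from RefSeq on GRCm38.p6, in windows that end 50 bases after the gene start, and capitals mark matches to the core of the hypoxia response element, ACGTG or GCGTG on either strand, which was the only one of 4 motifs searched that matched in these windows. All 6 genes had an entry. Edn2 lies at chr4:120160956-120161255 on the plus strand, Edn1 at chr13:42301226-42301525 on the plus strand, and Ednrb at chr14:103843652-103843951 on the minus strand.
Edn2: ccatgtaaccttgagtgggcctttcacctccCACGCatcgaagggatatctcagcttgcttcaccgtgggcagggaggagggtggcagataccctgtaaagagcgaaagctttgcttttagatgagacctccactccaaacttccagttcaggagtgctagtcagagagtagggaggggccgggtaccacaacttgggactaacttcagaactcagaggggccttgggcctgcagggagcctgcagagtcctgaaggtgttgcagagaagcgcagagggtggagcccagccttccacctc
Edn1: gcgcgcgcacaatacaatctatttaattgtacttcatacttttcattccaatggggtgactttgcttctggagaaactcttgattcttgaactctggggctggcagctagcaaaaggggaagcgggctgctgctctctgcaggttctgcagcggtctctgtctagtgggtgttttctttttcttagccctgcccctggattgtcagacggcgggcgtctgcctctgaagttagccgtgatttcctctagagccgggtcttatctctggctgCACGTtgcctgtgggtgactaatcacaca
Ednrb: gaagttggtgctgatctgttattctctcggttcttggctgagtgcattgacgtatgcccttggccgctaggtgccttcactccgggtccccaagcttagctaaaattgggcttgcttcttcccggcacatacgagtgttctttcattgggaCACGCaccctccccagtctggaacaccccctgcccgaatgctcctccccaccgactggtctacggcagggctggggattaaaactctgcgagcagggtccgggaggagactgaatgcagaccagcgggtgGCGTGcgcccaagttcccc

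The hypoxia core matched at position -219 from the gene start in Edn2, at 21 in Edn1, and at -99 and 31 in Ednrb, and 43.8% of 32851 mouse promoters of the same length held such a match. None of the 3 windows held TGANTCA, the letters of an AP-1 site, which 7.81% of promoters held, or TTCNNNGAA, those of a STAT site, which 8.3% held. The C/EBP letters TTNNGNAA, present in 40.7% of promoters, were not found there either. Among members without a call, the hypoxia core matched in some windows of Ece1, which had several, and in none of Edn3 or Ednra. All motifs were searched on both strands, and overlaps between motifs were kept. The statement covers the letters of these windows and nothing further.

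Of the ligands, Edn2 rose at both doses, to 5.21-fold of the PBS level in 10PTC retinas and 4.37-fold in PTC retinas. Its probe of 60 bases lies at chr4:119839682-119839741 on the plus strand of mm9, the build of the array design; whether the probes lie in coding or untranslated sequence is not stated in the sources used here. The log2 ratio of treated over PBS, on which 1 unit is a doubling, was 2.40, 2.29 and 2.45 on the 10PTC arrays. On the PTC arrays it was 2.93, 1.5 and 1.95. All 6 arrays were high, PTC replicate 1 stood highest and PTC replicate 2 lowest, and the doses overlapped.

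The mean log2 ratio of Edn2 was 2.38 ± 0.08 in 10PTC and 2.13 ± 0.73 in PTC (SD, n = 3 pools each). In a limma model fitted across all genes, with Benjamini-Hochberg adjustment, the 10PTC fold had a 95% interval of 3.63 to 7.48 and an adjusted p of 0.00135. The PTC fold had an interval of 3.05 to 6.28 and an adjusted p of 0.00131. The share of all genes that passed the threshold of 0.05 was 27.7% for 10PTC and 33.1% for PTC, so that passing was common. The size of the Edn2 ratio was not: 5 genes at 10PTC (0.0191%) and 6 at PTC (0.023%), Edn2 included, had a ratio at least as high. The p-values and intervals rest on 1 spread, estimated over both doses together with 3 arrays per dose. All arrays were set against the same kind of control RNA. If that RNA came from a single pool, the p-values and intervals hold no spread among control pools. With each dose fitted alone, the limma adjusted p of Edn2 was 2.07e-05 in 10PTC and 0.0178 in PTC. In pooled tissue, a change in the number of cells of a type and a change in RNA per cell cannot be told apart.

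The channels of the Edn2 spot showed where its spread lay. The normalized log2 signal of the treated channel was 13.09, 12.85 and 13.07 on the 10PTC arrays and 13.61, 11.92 and 12.47 on the PTC arrays. The PBS channel of those arrays read 10.68, 10.56 and 10.62 beside 10PTC and 10.68, 10.41 and 10.51 beside PTC. The PBS signals thus lay close together on all 6 arrays, and every treated signal lay above every PBS signal. As the number of control pools is not stated, this closeness may be that of repeated measurements of a single pool. Edn2 was well measured in the PBS retinas too.

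The arrays were on 2 slides, PTC replicates 1 and 2 on slide 1 and the other 4 on slide 2, with 1 scan batch per slide. Within slide 2 the Edn2 ratio was 2.38 in 10PTC (limma adjusted p = 2.07e-05) and 1.95 in the single PTC array (limma adjusted p = 0.000482, its spread taken from the 10PTC arrays). Within slide 1 the PTC value was 2.22, which did not pass with 2 arrays (limma adjusted p = 0.0644). Direction was the same on every array of both slides.

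**Figure D1:**
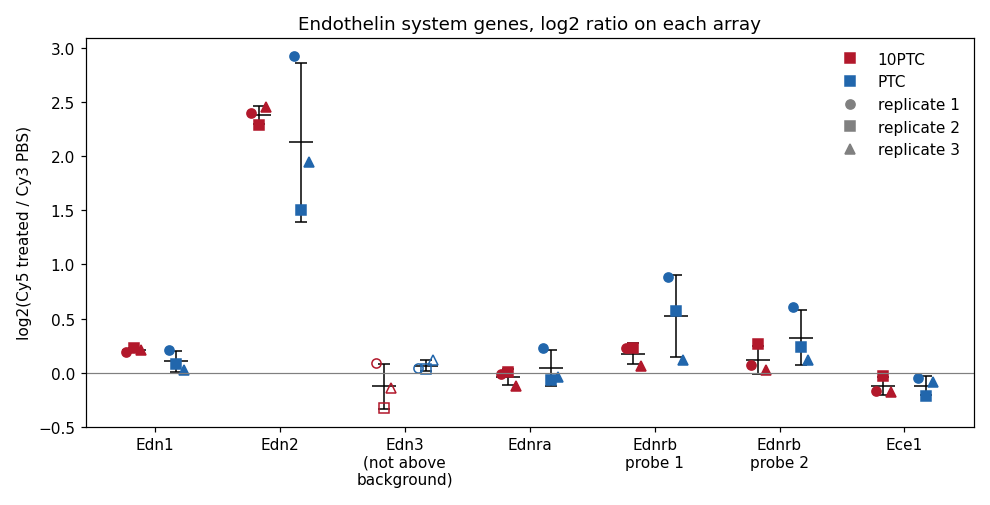
Each point is the log2 ratio of treated (Cy5) over PBS (Cy3) of a gene or probe on 1 array, 10PTC in red left of PTC in blue, with the mean and SD of 3 arrays as bars. Edn2 sits between 1.5 and 2.93 on all 6 arrays, while every other point lies between -0.33 and 0.88. Hollow points mark Edn3, which was not well above background.

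Edn1, the main endothelin of blood vessels, was slightly higher in 10PTC retinas. Its probe lies at chr13:42403101-42403160 on the plus strand and was printed in several spots per array, of which 9 or 10 per array were kept. The log2 ratio was 0.19, 0.23 and 0.21 on the 10PTC arrays and 0.21, 0.08 and 0.02 on the PTC arrays. The 10PTC arrays lay close together, and PTC replicate 1 was as high as they were, so that the doses overlapped. The SD among spots of the same array was 0.08 to 0.10.

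The mean of Edn1 was 0.21 ± 0.02 in 10PTC, a 1.16-fold level (95% interval 1.07 to 1.25, limma adjusted p = 0.0199). In PTC it was 0.10 ± 0.10, a 1.07-fold level (interval 0.992 to 1.16), which did not pass (limma adjusted p = 0.144). The 10PTC call was lost when any 1 of the 3 10PTC arrays was left out, at values of 0.20 to 0.22 with limma adjusted p between 0.0741 and 0.109. With the slide as a block the value was 0.27 and did not pass (limma adjusted p = 0.0759). With the replicate number as a block it was 0.21 and did not pass (limma adjusted p = 0.052). With arrays centred on their median in place of loess it was 0.03 (limma adjusted p = 0.677). Edn1 passed in 10PTC at higher values with the scanner software's processed signals (0.43, limma adjusted p = 0.0276) and the authors' deposited table (0.44, limma adjusted p = 0.0278). The same held with a normexp offset of 0 (0.37, limma adjusted p = 0.0272). The size of the Edn1 ratio thus varied with the processing, above 0 under each of these settings.

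Edn3, whose probe lies at chr2:174608971-174609030 on the plus strand, was not well above background in either channel on any of the 6 arrays. Its log2 ratios ran between -0.33 and 0.09 in 10PTC and between 0.03 and 0.12 in PTC. With no signal to compare on either side, no fold is given. Without the filter, Edn3 did not pass at 10PTC (limma adjusted p = 0.247) or at PTC (limma adjusted p = 0.552).

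Among the receptors, Ednra gave no call at either dose. Its probe lies at chr8:80186985-80187044 on the minus strand. The log2 ratio was -0.01, 0.01 and -0.12 on the 10PTC arrays and 0.23, -0.07 and -0.04 on the PTC arrays. Values lay on both sides of 0 at each dose, and PTC replicate 1 was the highest array. The fold was 0.974 in 10PTC (95% interval 0.875 to 1.08, limma adjusted p = 0.697) and 1.03 in PTC (0.922 to 1.14, limma adjusted p = 0.69). These intervals bound any change of Ednra that the arrays would allow to well under that of Edn2.

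With the spread shared by the doses, Ednrb was higher than PBS in PTC retinas and did not pass in 10PTC retinas. The brighter of its probes, used for the gene and called probe 1 here, lies at chr14:104214484-104214543 on the minus strand. Its log2 ratio was 0.23, 0.23 and 0.06 on the 10PTC arrays and 0.88, 0.57 and 0.12 on the PTC arrays. Every array was above 0, PTC replicates 1 and 2 stood apart as the highest, and PTC replicate 3 lay among the 10PTC arrays. The mean was 0.18 ± 0.10 in 10PTC, a 1.13-fold level (95% interval 0.922 to 1.38, limma adjusted p = 0.325). In PTC it was 0.52 ± 0.38, a 1.44-fold level (interval 1.17 to 1.76, limma adjusted p = 0.018).

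Probe 2 of Ednrb lies at chr14:104220870-104220929, upstream of probe 1 in the direction of transcription. It is shown because it gives the second reading of the receptor; it reads without a stop codon in its first frame, and it carries no capitals since nothing in it is singled out.
Ednrb probe 2: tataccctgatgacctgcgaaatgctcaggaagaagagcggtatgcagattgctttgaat

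The log2 ratio of probe 2 was 0.07, 0.26 and 0.02 on the 10PTC arrays and 0.61, 0.24 and 0.12 on the PTC arrays. PTC replicate 1 was again the highest array, and 10PTC replicate 2 lay above the other PTC arrays. In a fit over probes, its mean of 0.32 ± 0.25 passed in PTC (limma adjusted p = 0.0317) and its mean of 0.12 ± 0.13 did not pass in 10PTC (limma adjusted p = 0.368). Both probes passed in PTC and neither in 10PTC, with the smaller PTC value on probe 2.

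The calls of Ednrb depended on the shared spread and on which arrays were used. With each dose fitted alone, Ednrb passed in 10PTC (0.18, limma adjusted p = 0.0416) and not in PTC (0.52, limma adjusted p = 0.0689). Without PTC replicate 1 the PTC value was 0.34 (limma adjusted p = 0.0506). Without PTC replicate 2 it was 0.50 (limma adjusted p = 0.0645). Within slide 1 it was 0.72 over 2 arrays (limma adjusted p = 0.0707). Within slide 2 the single PTC array gave 0.12 (limma adjusted p = 0.419), beside 0.18 for 10PTC (limma adjusted p = 0.0416). The highest Ednrb ratios were those of the slide 1 arrays. With the slide as a block, a fit that sets the 10PTC arrays, all on slide 2, to the average of the slides, the 10PTC value was 0.48 (limma adjusted p = 0.0621) and the PTC value 0.42 (limma adjusted p = 0.0168).

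The channels of probe 1 differed from those of Edn2. Its treated signal was 8.21, 8.13 and 7.97 on the 10PTC arrays and 8.49, 8.22 and 7.45 on the PTC arrays, which overlapped. Its PBS signal was 7.98, 7.90 and 7.91 beside 10PTC and 7.61, 7.66 and 7.34 beside PTC, with no overlap. The mean PBS signal was thus 0.39 higher on the 10PTC arrays, and 0.59 higher on them than on PTC replicate 3, which shared their slide. On probe 2 the same differences in the PBS signal were -0.06 and 0.08, and for Edn2 they were 0.08 and 0.10. Among 26128 genes, 361 (1.38%) had PBS signals that did not overlap between the arrays of the doses and differed by at least as much as on probe 1, a comparison made after the values had been seen. The mean treated signal of probe 1 was only 0.05 higher on the 10PTC arrays, so its ratio difference between the doses of -0.35 lay mostly in the PBS channel. On probe 2 the treated signal differed by -0.26 and the PBS signal by -0.06, so that its difference lay mostly in the treated channel. Why the PBS signals of probe 1 differed was not tested.

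**Figure D2:**
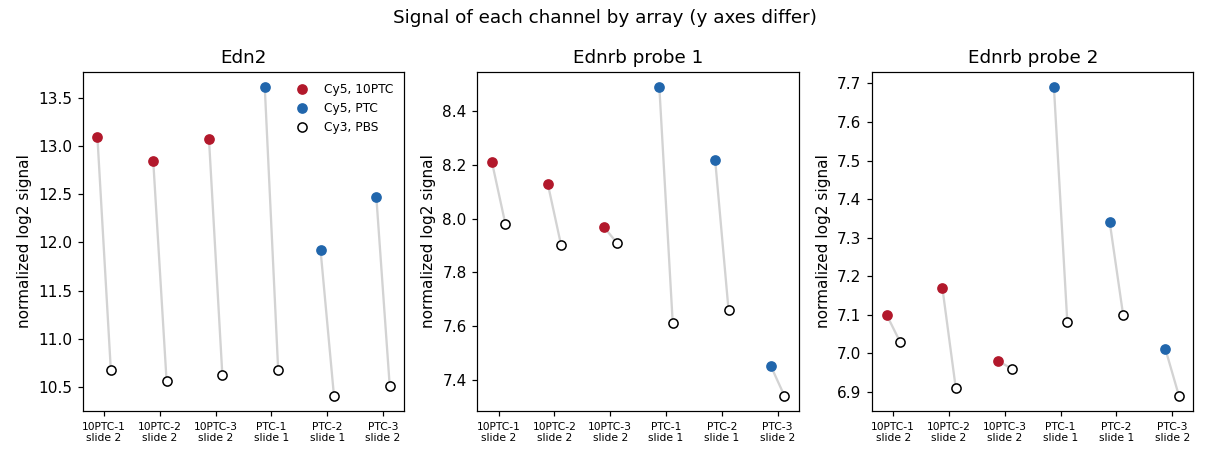
Normalized log2 signal of the treated channel (filled, 10PTC red, PTC blue) and of the PBS channel (open) on each array, with grey lines joining the channels of an array and different y axes per panel. The PBS signal of Edn2 stays between 10.41 and 10.68, while that of Ednrb probe 1 lies between 7.90 and 7.98 on the 10PTC arrays and between 7.34 and 7.66 on the PTC arrays.

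Ece1, which makes active endothelin from its precursor, gave no call. Its probe lies at chr4:137519606-137519665 on the plus strand. The log2 ratio was -0.17, -0.03 and -0.18 on the 10PTC arrays and -0.05, -0.22 and -0.09 on the PTC arrays. All 6 arrays were slightly below 0, and the doses overlapped. The fold was 0.917 in 10PTC (95% interval 0.842 to 0.999, limma adjusted p = 0.115) and 0.922 in PTC (0.847 to 1, limma adjusted p = 0.125).

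Over the measured members, 2 of 5 passed in 10PTC (Edn1 and Edn2, both higher, against 14.4% of all genes called higher) and 2 of 5 in PTC (Edn2 and Ednrb, both higher, against 16.9%). None was called lower at either dose, against 13.3% of all genes in 10PTC and 16.3% in PTC. With 5 members, these counts do not set the members apart from genes at large. Ordered by the mean ratio over 6 arrays, Edn2 (2.25) came first, before Ednrb (0.35), Edn1 (0.16), Ednra (0.00) and Ece1 (-0.12). Edn2 had the brightest probe, and the offset of the background correction shrinks the ratios of dim probes. With the scanner software's processed signals Ednrb was 0.79 in PTC and Edn1 0.43 in 10PTC, beside 2.18 and 2.46 for Edn2 at those doses. Edn2 exceeded Ednrb by 1.91 ± 0.51 (SD), on 6 of 6 arrays, with p = 0.03125 in a two-sided exact sign-flip permutation test, the smallest that 6 arrays allow, and 0.0625 adjusted over the 4 neighbouring pairs. Ednra exceeded Ece1 by 0.12 ± 0.09, also on 6 of 6 arrays, with the same exact p and adjusted value. Ednrb and Edn1 (0.19 ± 0.32, exact adjusted p = 0.281) and Edn1 and Ednra (0.16 ± 0.12, exact adjusted p = 0.0833) were each ordered so on 5 of 6 arrays. The pairs were set by ranking the same arrays, and none passed after adjustment in a design with so high a smallest p, so these p-values do not show that neighbours were alike.

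A comparison of the doses gave no call among the members, 0 of 5, nor among all genes, where 0% passed; at an unadjusted p under 0.05, 0 of 5 members and 2130 of 26134 genes (8.15%) differed in the same limma fit. For Edn2 the 10PTC minus PTC difference was 0.25 on the log2 scale (95% interval -0.49 to 0.99, limma adjusted p = 0.842), so that the ratio between doses may lie anywhere from 0.713-fold to 1.99-fold. For Ednrb it was -0.35 (interval -0.76 to 0.07, limma adjusted p = 0.652), and 0.06 within slide 2. For Edn1 it was 0.11 (-0.05 to 0.27), for Ednra -0.08 (-0.29 to 0.14) and for Ece1 -0.01 (-0.18 to 0.17). The arrays of the doses overlapped for all 5 members. They did not overlap for 15.5% of genes, a share at which 5 members are too few to stand apart. The intervals do not show the doses to be alike. With array quality weights 364 genes were called between the doses, none of them a member.

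The enzymes nearest to Ece1 were described from a list of 7 that held the M13 metallopeptidase family and furin, of which Kel was not measured. At 10PTC 1 of 6 was higher and 1 lower, with a median log2 ratio of -0.17, and at PTC 1 was higher and 2 lower, with a median of -0.04, against a median of 0 over all genes at both doses and a share called of 27.7% and 33.1% of all genes. The one that rose was Ecel1, known in rodents as a neuronal endopeptidase induced by nerve damage, at 2.82 ± 0.39 in 10PTC (limma adjusted p = 0.00173) and 2.81 ± 0.89 in PTC (limma adjusted p = 0.00129). Its ratio was 2.41, 2.89 and 3.18 on the 10PTC arrays and 3.74, 1.97 and 2.73 on the PTC arrays, high on every array. Mmel1, a neprilysin-like peptidase, fell by 0.25 ± 0.04 in 10PTC (limma adjusted p = 0.0295) and by 0.33 ± 0.17 in PTC (limma adjusted p = 0.00955). Ece2, the closest relative of Ece1 in name, stood at -0.20 ± 0.05 in 10PTC (limma adjusted p = 0.144) and fell by 0.38 ± 0.28 in PTC (limma adjusted p = 0.0206). Phex, known for its part in phosphate balance, did not pass at 10PTC (-0.22, limma adjusted p = 0.0501) or PTC (0.00, limma adjusted p = 0.989).

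Downstream of the receptors, 20 of 20 listed G proteins, phospholipases, calcium channels, kinases and regulators were measured. At 10PTC 2 were higher and 4 lower, and at PTC 3 were higher and 4 lower, with medians of -0.06 and -0.01, so that the share called was near that of all genes (27.7% and 33.1%). Rgs4, which switches off the G proteins that endothelin receptors use, had the smallest p of the list: its ratio was -0.73, -0.78 and -0.80 on the 10PTC arrays and -0.84, -0.78 and -0.60 on the PTC arrays. It fell on every array, by 0.77 ± 0.04 in 10PTC (limma adjusted p = 0.000635) and by 0.74 ± 0.12 in PTC (limma adjusted p = 0.00055). Plcb4, a phospholipase C that makes the calcium-releasing messenger, rose by 0.33 ± 0.07 in 10PTC (limma adjusted p = 0.00479) and 0.29 ± 0.07 in PTC (limma adjusted p = 0.00556). Gna13, the alpha subunit of a G protein, rose by 0.30 ± 0.07 in 10PTC (limma adjusted p = 0.0138) and 0.29 ± 0.15 in PTC (limma adjusted p = 0.012). Arrb1, a beta-arrestin that uncouples receptors, fell by 0.22 ± 0.11 in 10PTC (limma adjusted p = 0.0236) and 0.29 ± 0.06 in PTC (limma adjusted p = 0.00754). Of the inositol trisphosphate receptors, the calcium channels opened by that messenger, Itpr2 rose by 0.19 in PTC (limma adjusted p = 0.0404) and did not pass in 10PTC (limma adjusted p = 0.265), and Itpr1 and Itpr3 passed at neither dose; these were named after their values were seen.

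Of 14 genes listed for stress signalling between photoreceptors and Müller glia, the setting in which Edn2 is known, 11 were higher at each dose and none lower, against 14.4% of all genes higher at 10PTC and 16.9% at PTC. The list was chosen with earlier results of these data known, so this count is a description and not a test. Their median log2 ratio was 0.92 at 10PTC and 0.92 at PTC. Bcl3, a partner of NF-kappa-B, rose by 2.84 ± 0.13 in 10PTC (limma adjusted p = 0.00271) and 2.59 ± 1.13 in PTC (limma adjusted p = 0.00266). Cebpd, a transcription factor of the acute phase response, rose by 2.63 ± 0.24 in 10PTC (limma adjusted p = 0.00135) and 2.03 ± 0.76 in PTC (limma adjusted p = 0.0019). Gfap, the intermediate filament of reactive glia, had ratios of 1.30, 1.53 and 1.48 on the 10PTC arrays and 2.33, 1.23 and 1.28 on the PTC arrays and passed at both doses. Fgf2, a growth factor that protects photoreceptors in rodents, rose by 1.34 ± 0.04 in 10PTC (limma adjusted p = 0.00355) and 1.12 ± 0.58 in PTC (limma adjusted p = 0.00449).

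Lif itself, the cytokine placed at the head of that response in mice, did not pass: its ratio was 0.06, 0.18 and 0.23 on the 10PTC arrays and 0.34, -0.14 and 0.17 on the PTC arrays. The mean was 0.16 ± 0.09 in 10PTC (limma adjusted p = 0.208) and 0.13 ± 0.24 in PTC (limma adjusted p = 0.296). Stat3, the transcription factor on which such cytokines act, rose by 0.64 ± 0.09 in 10PTC (limma adjusted p = 0.0116) and 0.52 ± 0.38 in PTC (limma adjusted p = 0.0179). The median of the stress list on single arrays was 0.95, 0.99 and 0.90 in 10PTC and 1.43, 0.37 and 0.96 in PTC. PTC replicate 1 was the highest array and PTC replicate 2 the lowest, as they were for Edn2. Outside this list Ecel1 had the same order on the PTC arrays, and Plcb4 did not.

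**Figure D3:**
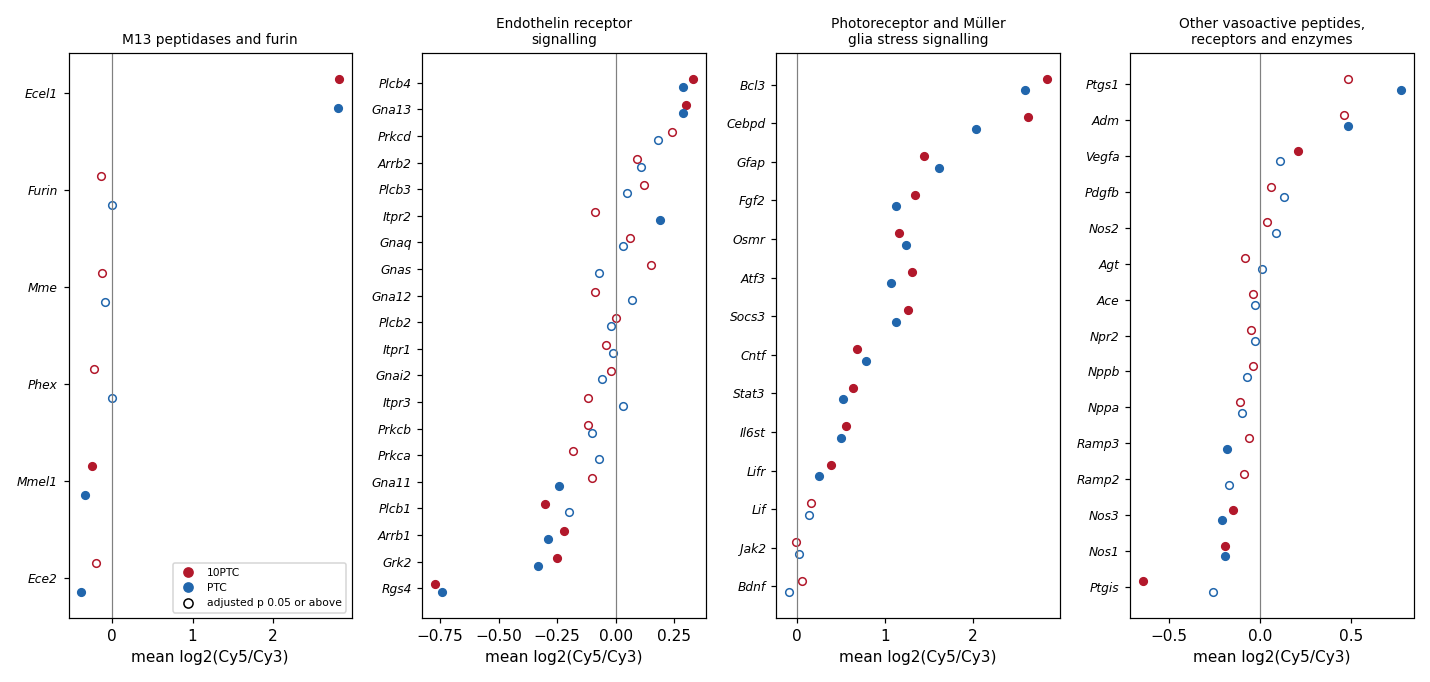
Mean log2 ratio of treated over PBS of each measured gene in 4 lists, 10PTC in red above PTC in blue, filled where the limma adjusted p was under 0.05. Of the stress signalling genes 11 of 14 are filled at each dose, all to the right of 0, while the receptor signalling genes lie on both sides of 0 with Rgs4 lowest.

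Other vasoactive peptides, receptors and enzymes were called about as often as genes at large, of which 27.7% passed at 10PTC and 33.1% at PTC. Of 20 listed, 15 were measured; 1 was higher and 3 lower at 10PTC, with a median of -0.05, and 2 were higher and 3 lower at PTC, with a median of -0.03. Ptgis, which makes the vessel-dilating prostacyclin, fell by 0.64 ± 0.21 in 10PTC (limma adjusted p = 0.00396) and stood at -0.26 ± 0.17 in PTC (limma adjusted p = 0.0539). Nos3, the nitric oxide synthase of endothelium, fell by 0.15 ± 0.02 in 10PTC (limma adjusted p = 0.037) and by 0.21 ± 0.05 in PTC (limma adjusted p = 0.00893). Nos1, the neuronal synthase, fell by 0.19 ± 0.04 in 10PTC (limma adjusted p = 0.0174) and by 0.19 ± 0.05 in PTC (limma adjusted p = 0.0156). Adm, the vessel-dilating peptide adrenomedullin, stood at 0.46 ± 0.03 in 10PTC (limma adjusted p = 0.0516) and rose by 0.48 ± 0.47 in PTC (limma adjusted p = 0.0406).

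Markers of the cell types that carry endothelin receptors moved in both directions; over all genes, 14.4% were higher and 13.3% lower at 10PTC, and 16.9% higher and 16.3% lower at PTC. Of 10 Müller glia markers, 4 were higher and 3 lower at each dose, with medians of 0.20 at 10PTC and 0.07 at PTC. Glul, the glutamine synthetase of Müller glia, fell by 0.61 ± 0.08 in 10PTC (limma adjusted p = 0.00321) and by 0.64 ± 0.21 in PTC (limma adjusted p = 0.00204), while Clu, a secreted chaperone, rose by 0.78 ± 0.10 in 10PTC (limma adjusted p = 0.00362) and 0.80 ± 0.31 in PTC (limma adjusted p = 0.00242). Of 5 astrocyte markers 2 were higher at each dose, and 1 was lower at PTC. Of 11 endothelial markers measured, 1 was higher and 1 lower at 10PTC and 2 higher and 2 lower at PTC; Vwf, a clotting protein of endothelium, rose by 0.70 ± 0.20 in 10PTC (limma adjusted p = 0.00329), whereas Esam, a junction protein, fell by 0.26 ± 0.08 there (limma adjusted p = 0.00842). Of 10 pericyte and smooth muscle markers, 1 was higher and 2 lower at 10PTC and 3 higher and 2 lower at PTC; Rgs5, of pericytes, rose by 0.48 ± 0.21 in 10PTC (limma adjusted p = 0.00572) and Des, the muscle filament desmin, fell by 0.54 ± 0.05 (limma adjusted p = 0.00105). All skeletal muscle markers described below fell as well, and the part of muscle tissue in the fall of Des was not tested.

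Markers of other cell types moved beside Edn2 on the same arrays. Of 10 microglia and macrophage markers 9 were higher at each dose, and 10 of 10 stood above background in the PBS channel on all arrays. Their median was 1.03, 0.95 and 1.22 on the 10PTC arrays and 1.76, 0.74 and 1.34 on the PTC arrays. It was highest and lowest on the same PTC arrays as for Edn2. This order was not particular to them: Ecel1, Adm, Clu and Vwf had it on the PTC arrays too, while Rgs5 and Plcb4 did not. Of 10 skeletal muscle markers 10 were lower at each dose, with array medians of -2.06, -2.09 and -2.30 in 10PTC and -2.40, -2.39 and -2.91 in PTC, and all 10 were above background in the PBS channel of every array. Of 10 rod markers 4 were higher and none lower at each dose, with array medians of 0.29, 0.20 and 0.16 in 10PTC and -0.20, 0.44 and 0.15 in PTC. Of 10 melanocyte and pigment epithelium markers, cells in which Ednrb is also known, 5 were higher at each dose and 1 was lower at 10PTC, with array medians of 0.12, 0.35 and 0.21 in 10PTC and 0.50, 0.19 and 0.32 in PTC. Cone markers had 2 of 7 lower at 10PTC and 3 lower and 1 higher at PTC, and markers of cornea and lens had 1 of 6 lower at 10PTC and 1 lower and 1 higher at PTC. The part of these cell types in the ratios of the endothelin genes was not tested.

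The genes whose ratios were most like those of Edn2 were sought among 16567 genes that had a current symbol and stood above background in Cy5 on all arrays, by the root mean square difference of the log2 ratio over the 6 arrays. Cebpd was nearest (0.227), followed by Clec7a, a receptor of myeloid cells for fungal glucans (0.33), Timp1, an inhibitor of metalloproteinases (0.431), Serpina3n, a protease inhibitor of reactive astrocytes in mice (0.45), and Lilrb4a, an inhibitory receptor of myeloid cells (0.454). Cebpd had ratios of 2.89, 2.42 and 2.59 on the 10PTC arrays and 2.84, 1.34 and 1.91 on the PTC arrays. All 5, like Edn2, were highest of the PTC arrays on replicate 1 and lowest on replicate 2, an order favoured by how they were picked. The 6 points share the loess step and the slides, and the likeness is a description.

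**Figure D4:**
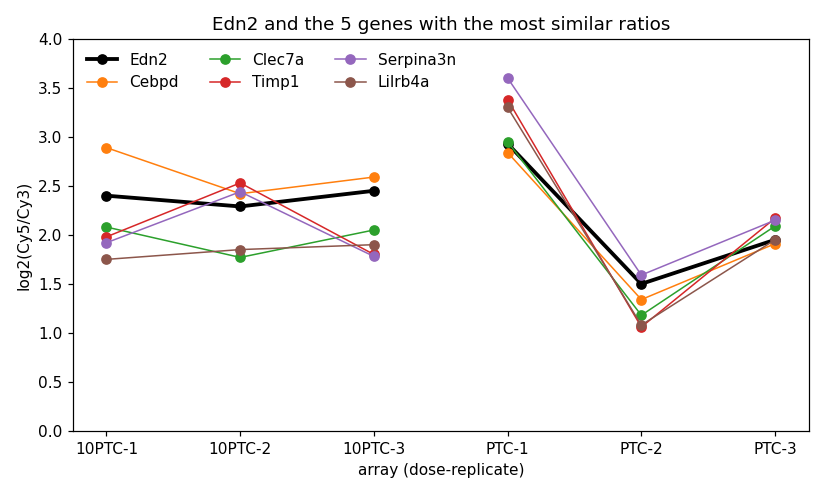
Log2 ratio of treated over PBS on each array for Edn2 (black) and the 5 genes of the smallest root mean square difference from it, with the 10PTC arrays left of the PTC arrays and lines joining arrays of a dose only to guide the eye. On the PTC arrays all 6 genes are highest on replicate 1 and lowest on replicate 2.

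For Ednrb the nearest were Siglec1, a lectin of macrophages (0.119), AY074887 (0.126), Olfr770, an olfactory receptor (0.133), BC147527 (0.138) and Piezo2, a mechanically gated channel (0.147). Siglec1 had ratios of 0.15, 0.25 and 0.27 on the 10PTC arrays and 0.86, 0.43 and 0.24 on the PTC arrays. In these 5 genes PTC replicates 1 and 2 on slide 1 had the highest ratios of the 6 arrays. They were picked for likeness to Ednrb on these arrays, so this pattern follows from the choice. None of the 5 was among those nearest to Edn2.

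**Figure D5:**
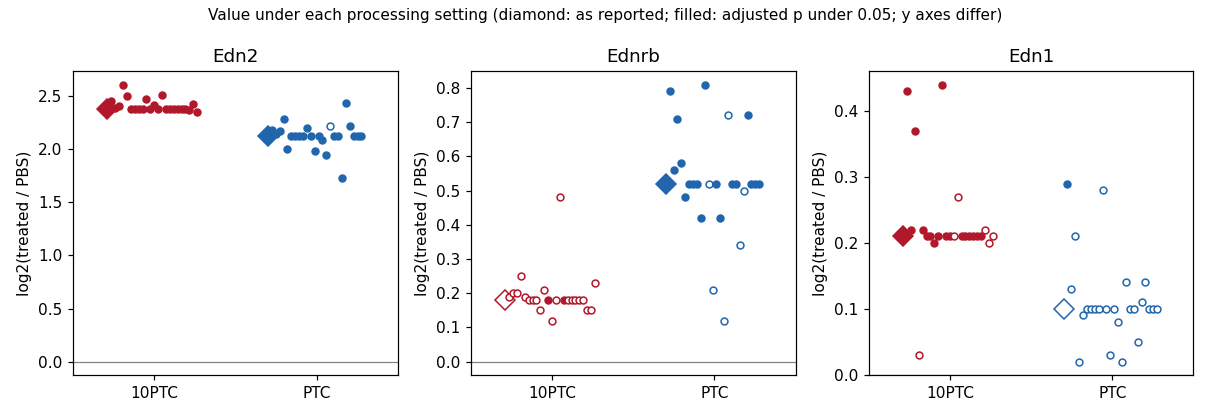
Log2 ratio of treated over PBS for Edn2, Ednrb and Edn1 under each processing setting, 10PTC left of PTC, with a diamond for the reported value, filled symbols for a limma adjusted p under 0.05, and different y axes per panel. Edn2 stays between 2.35 and 2.61 in 10PTC and between 1.73 and 2.44 in PTC, whereas Ednrb in PTC spans 0.12 to 0.81 with filled and open symbols.

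As for the arrays as a whole, 71.0% to 85.5% of 43020 gene spots per array were clear of background, and none was saturated. The lowest shares were those of the slide 1 arrays. The number of arrays limits the precision of every value above.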

How the data were processed

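Retinal RNA of 6 treated pools was compared with control RNA on 2-colour Agilent arrays with 60-base probes. The authors deposited scanner files with spot intensity values in 2 channels and log10 ratios, made with Agilent Feature Extraction 10.7.3.1 per the file headers (9.3.2.1 per the submitters' processing notes). They also deposited a table of log2 ratios, which ran as Cy5 over Cy3 (r of 0.983 to 1 with the log10 ratios, slope 3.32, column medians of -0.075 to 0.039); its centring is otherwise unknown, and it served as an alternative.

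Mean signals were corrected with normexp on the median local background (offset 50), which shrinks the ratios of dim probes, and normalized by loess within arrays in limma 3.58.1 (under R 4.3.3, with 1.17.8 of data.table), with 1377 control spots at weight 0. Outlier spots (185 to 274 per array) were left out and spots of a probe averaged. The filter left out 6939 probes, and the probe of highest mean intensity stood for a gene. Of 39429 probes 26055 were named by accession, 3195 by symbol, 930 by synonym among RefSeq genes, and 9249 kept the file's name; all 6 genes described were matched by accession. Promoter sequences came from RefSeq windows on GRCm38.p6, and probe coordinates from the array design (mm9), with no conversion between the builds.

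The limma model had 1 coefficient per dose over 6 arrays (4 residual and 3.41 prior degrees of freedom), with Benjamini-Hochberg adjustment over 26134 genes and a threshold of 0.05. The model was tested on simulated data for 10PTC against PBS over 26134 genes, with 50 genes changed at each fold. It recovered 32% of genes changed 1.2-fold, 98% at 1.5-fold and 100% at 2-fold, with 13 false calls. In the data themselves 27.7% of genes passed at 10PTC, so these shares need not hold there. Median signals of 187 to 347 in Cy5 and 153 to 221 in Cy3, against backgrounds of 47 to 48 and 26 to 29, set the precision. The genes and gene lists described were chosen with earlier results of these data known. Up to 4 genes of the smallest p over both doses were named per list, with Ece2, Ecel1, Gfap, Lif, Stat3 and Glul, and the 5 nearest genes of Edn2 and Ednrb. Alternatives were other signals, normalizations, filters, probe rules and priors, the authors' table, array weights, replicate or slide as a block, single slides, and each array left out.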

Additional observations from a re-analysis of the deposited data

How the results depend on the processing

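Edn2 passed in 10PTC under all 23 alternatives (2.35 to 2.61, limma adjusted p 2.07e-05 to 0.0228) and in PTC under 23 of 24 (1.73 to 2.44), missing within slide 1 (2.22, adjusted p = 0.0644). The number of members called in 10PTC, 2 as reported, was 1 under median centring, with the replicate block and with the slide as a block, 3 with each dose fitted alone, with array weights and within slide 2, and 1 to 2 when an array was left out. In PTC it was 3 with processed signals, 1 with each dose fitted alone and within slide 2, 0 within slide 1, and 1 to 2 when an array was left out. Between the doses it was 0 throughout, and at an unadjusted p under 0.05 it was also 0 as reported.

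Edn1 in 10PTC missed under median centring (0.03), the replicate block, the slide block (0.27, adjusted p = 0.0759) and with any 10PTC array left out. In PTC Edn1 passed only with processed signals (0.29, adjusted p = 0.0435). Ednrb in PTC also missed with each dose fitted alone (0.52, adjusted p = 0.0689) and array weights (0.21, adjusted p = 0.0763). Ednrb in 10PTC passed with each dose fitted alone (0.18, limma adjusted p = 0.0416). Ece1 passed only under array weights, in 10PTC (-0.16, adjusted p = 0.00705) and PTC (-0.10, adjusted p = 0.0435). Signs turned only in values that did not pass. For Ece1 between doses it was 0.07 with processed signals, 0.04 with no background subtraction, 0.07 with the authors' table, and 0.01 to 0.03 without PTC replicate 1 or 3 or 10PTC replicate 1 or 3. Edn2 between doses was -0.06 to 0.65 when an array was left out, below 0 without PTC replicate 2. Ednra turned in 10PTC with the slide block (0.02) and without 10PTC replicate 3 (0.00), in PTC with processed signals (-0.01), array weights (-0.03), within slide 2 (-0.04) and without PTC replicate 1 (-0.06, against up to 0.09 without another array), and between doses with the slide block (0.01), within slide 2 (0.01) and without PTC replicate 1 (0.02, against down to -0.13). Ednrb between doses was 0.06 with the slide block and within slide 2. The causes were not tested.

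Whether replicate numbers pair the arrays cannot be told from these data. Deviations of same-numbered arrays correlated at -0.272, 0.146 and 0.198 over 26128 genes. Those of differently numbered arrays ran from -0.37 to 0.275. With the replicate block, Edn1 in 10PTC was 0.21 (adjusted p = 0.052), Edn2 2.38 in 10PTC and 2.13 in PTC, and the call count 1 in 10PTC and 2 in PTC. Over all genes, median centring called 9646 higher and 4988 lower in 10PTC and 8203 and 4212 in PTC, against 3762 and 3469 and 4404 and 4252 as reported; the slide block called 1009 in 10PTC and 5898 in PTC. Counts in 10PTC were also 4440 with processed signals, 4579 with the authors' table, 14033 with array weights, 1360 without 10PTC replicate 1 and 1566 without 10PTC replicate 3; in PTC they were 14717 with array weights, 4608 fitted alone, 1715 within slide 2, 289 within slide 1 and 5004 without PTC replicate 3. Between doses array weights called 364 and the fit without PTC replicate 3 called 1. 3 arrays per dose and the low signal of Edn3 limit what can be seen.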
